A study of Oryza sativa with 20 samples.

Results

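Transcript levels were compared between the lamina joint (LJ) and the leaf blade of rice (Oryza sativa) at stage 2 (S2) of the first complete leaf. The comparison used 4 of the 20 libraries of the study, LJ replicates 1 and 2 and blade replicates 1 and 2. The study sampled both tissues at 5 stages, S1 to S5, with 2 libraries per tissue and stage. Seedlings grew under 16 h of light at 28 °C and 8 h of dark at 25 °C, LJ pieces were under 1 mm and blade pieces under 10 mm long, and collection was on days 4, 5, 6, 7 and 9 after germination. The labels give no cultivar, genotype or treatment for any group, do not match the days to the stages, and are silent on whether replicates are separate plants. The p-values therefore rest on the spread between replicate libraries alone, which may be technical. This spread was estimated in 1 fit over all 20 libraries, so it also draws on the other stages. Values are FPKM, fragments counted per gene after division by gene length and library size, for 37829 rice gene IDs.

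The lamina joint joins the blade of a grass leaf to its sheath, and the amount of cell elongation on its upper side sets how far the leaf leans away from the stem. Brassinosteroids promote this bending, through pairs of helix-loop-helix proteins that promote or inhibit elongation. Auxin and gibberellin also act on leaf angle. A young grass leaf matures from the tip downwards, so blade tissue stops dividing, expands and becomes photosynthetic before the tissue at the blade base.

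Of the 26403 genes tested with limma on log2(FPKM + 1), 2770 were called higher in LJ than in blade, 10.5% of those tested, and 3274 were called lower, 12.4% of those tested, 22.9% in all at a Benjamini-Hochberg adjusted p under 0.05. On this scale a difference of 1 is a 2-fold difference for a well expressed gene and less than the true change for a gene at low FPKM. Large differences lay mostly on the lower side: 253 called genes were higher by at least 2 on the log2 scale and 1085 were lower by at least 2, and 37 and 406 passed 3. With LJ and blade libraries of the same number treated as pairs, 4716 genes were called higher (17.9%) and 5723 lower (21.7%). The paired fit takes its spread from the pairs of all 5 stages. At S2 the paired libraries deviated together least (correlation of the replicate difference 0.213). Without pairing, the share of calls on the higher side was 45.8%, and it was 56.4% after upper quartile scaling and 60% after quantile normalization. These scalings moved the median difference of all genes from −0.02 to 0.03 and 0.09. Genes were named where a known pair of symbol and ID matched the RefSeq gene order. These were 202 genes in 29 lists, of which 193 were tested, with 35 called higher, 41 called lower and 117 not called. Under 1 FPKM in all 4 libraries were 25 of the 202, and these are only counted unless stated.

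FPKM totals over rice gene IDs ran from 953275 to 1079325 in the 4 libraries, and 19854 to 21072 genes reached 1 FPKM. The LJ libraries correlated with each other across genes at 0.965 and the blade libraries at 0.953. LJ replicate 1 correlated better with the LJ libraries of S1 (0.972 and 0.971), and blade replicate 1 with LJ S3 replicate 1 (0.955). The number of calls was 3201 without LJ replicate 1, 4524 without LJ replicate 2, 3175 without blade replicate 1 and 4508 without blade replicate 2. A fit to these 4 libraries alone called 614, and 65 of the S2 calls of named genes described below were lost in it. Of the 76 named genes called, 42 stayed called with each of the 4 libraries left out in turn, 24 higher and 18 lower, and the 34 others are pointed out below with the libraries whose removal ended the call and the highest adjusted p this gave.

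Tissue markers gave an uneven check of the labels. LG1 (OS04G0656500), the SBP-domain factor required to form the ligule and lamina joint, did not separate the tissues: it stood at 5.03 and 3.34 FPKM in LJ and at 4.24 and 2.95 in blade, a difference of 0.17 ± 0.27 (SE, adjusted p = 0.73). At S1 and S3 it was higher in LJ, by 1.02 ± 0.27 (adjusted p = 0.0171) and 1.52 ± 0.27 (adjusted p = 0.00172). DL (OS03G0215200), the YABBY factor that forms the midrib, had 10.1 and 13.1 FPKM in LJ against 0.859 and 0.235 in blade. The 4 KNOX meristem and stem markers summed to 0.698 and 0.552 FPKM in LJ and 0.149 and 0.0752 in blade, near 0 in both tissues, with OSH1 and OSH6 listed at 0 in both blade libraries. The 6 markers of dividing cells summed to 580 and 442 FPKM in LJ against 144 and 165 in blade. The 4 markers of secondary wall in vascular tissue summed to 5.34 and 5.5 FPKM in LJ against 95.5 and 45.6 in blade. For 3 epidermal markers the sums were 94.1 and 130 FPKM in LJ and 88 and 94.9 in blade. Of 5 mesophyll markers 2 could be named, CAB1R and CAB2R, described with photosynthesis below, and of 3 stomatal markers 0. In such bulk samples, fewer cells of a type and less RNA per cell cannot be told apart, and the part of cell type composition in the differences below was not tested.

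Regulators of leaf angle went in both directions. Of 11 tested, 3 were higher in LJ and 3 were lower, where 10.5% and 12.4% of all genes were called, and the median was 0.04, against −0.02 over all tested genes. DL had the largest difference of the list, 3.04 ± 0.30 (adjusted p = 1.33e-05), with both LJ libraries far above both blade libraries. SMOS1 (OS05G0389000), an AP2-type factor that acts in auxin and brassinosteroid control of cell size, stood at 46.2 and 33.5 FPKM in LJ and at 14.6 and 20.3 in blade (1.15 ± 0.33, adjusted p = 0.0212). SPL14 (OS08G0509600), an SBP-domain regulator of plant architecture, stood at 9.33 and 11 FPKM in LJ and at 5.32 and 4.58 in blade (0.90 ± 0.22, adjusted p = 0.00854). Over all tested genes, 27.2% had both LJ libraries above both blade libraries. The groups of both genes did not overlap, but the call of SMOS1 was lost without LJ or blade replicate 1 (adjusted p up to 0.161) and that of SPL14 without LJ or blade replicate 2 (adjusted p up to 0.0526).

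The 3 members lower in LJ act in the bending response to brassinosteroids. CYCU4;1 (OS10G0563900), a U-type cyclin of the lamina joint known to control leaf erectness, had 16.8 and 25.3 FPKM in LJ against 89.1 and 82.8 in blade (−2.01 ± 0.27, adjusted p = 0.00015). BU1 (OS06G0226500), a helix-loop-helix protein that promotes bending, had 5.75 and 3.82 FPKM in LJ against 15.3 and 12.8 in blade (−1.39 ± 0.23, adjusted p = 0.000865). IBH1 (OS04G0660100), a helix-loop-helix inhibitor of elongation, was near the floor in LJ at 0.0561 and 0.117 FPKM and reached 8.06 and 2.8 in blade (−2.43 ± 0.38, adjusted p = 0.000534). The promoter BU1 and the inhibitor IBH1 thus stood on the same side, and all 3 genes kept their calls without any 1 of the 4 libraries. In a limma fit to the 4 libraries alone, CYCU4;1, BU1 and IBH1 lost their calls (adjusted p = 0.053, 0.0883 and 0.0676). LIC (OS06G0704300), a CCCH zinc finger protein that restrains the brassinosteroid response, was at 7.97 and 6.83 FPKM in LJ and at 2.99 and 5.45 in blade. LIC was not called without pairing (0.72 ± 0.32, adjusted p = 0.123) and was called with pairing (adjusted p = 0.0391) and under both scalings. LAZY1 (OS11G0490600), a gene of shoot gravitropism, overlapped between the tissues (−0.37 ± 0.57, adjusted p = 0.724), as did GH3-1 (OS01G0785400), an enzyme that conjugates auxin to amino acids (0.04 ± 0.24, adjusted p = 0.942).

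**Figure D1:**
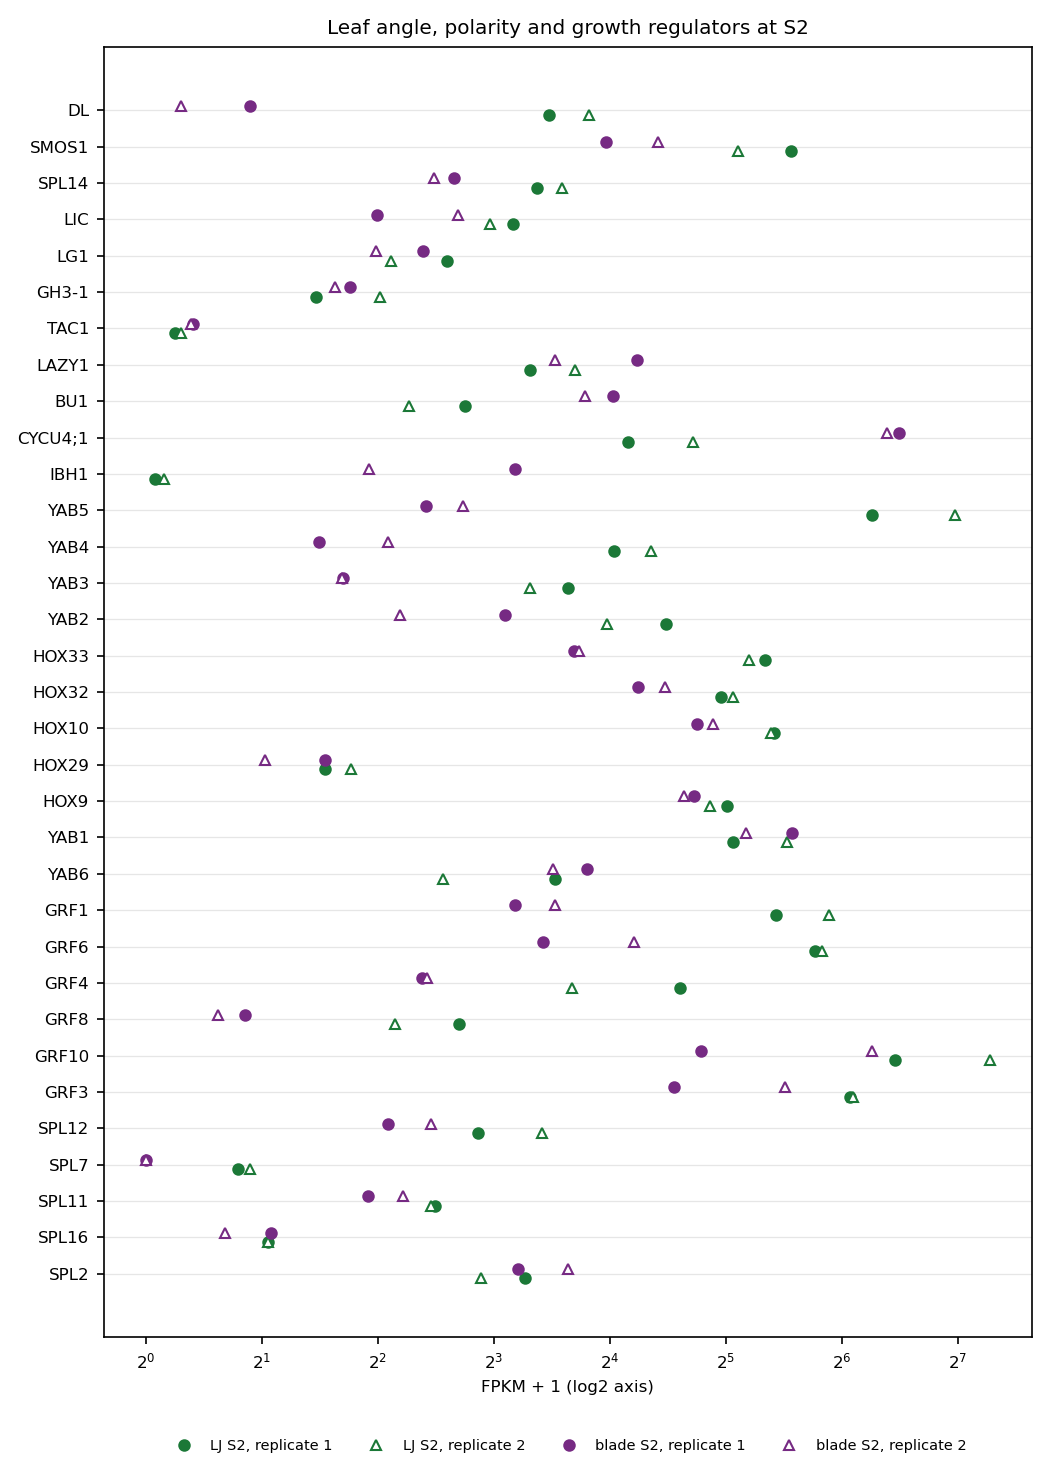
Levels of leaf angle, polarity and growth regulators at S2, as FPKM + 1 on a log2 axis, with 1 point per library (green LJ, purple blade; filled circles replicate 1, open triangles replicate 2). DL and YAB5 stand furthest apart on the LJ side, CYCU4;1, BU1 and IBH1 stand apart on the blade side, and LG1 overlaps.

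None of the 5 tested enzymes of brassinosteroid synthesis and none of the 4 tested signalling genes was called, with 22.9% called over all genes. BRD1 (OS03G0602300), which makes the active hormone, stood at 4.93 and 2.25 FPKM in LJ and at 8.54 and 6.55 in blade (−0.95 ± 0.56, adjusted p = 0.255). CPD1 (OS11G0143200), an earlier oxidase, stood at 5.81 and 5.49 FPKM in LJ and at 3.66 and 2.09 in blade (0.81 ± 0.39, adjusted p = 0.161). The tissues did not overlap in either gene, where 31.1% of all tested genes had LJ below and 27.2% LJ above. With pairing BRD1 was lower and CPD1 higher in LJ (adjusted p = 0.0047 and 0.0453). In all, pairing called 1 higher and 2 lower in the synthesis list and 1 higher and 0 lower in the signalling list. Over all genes pairing called 17.9% higher and 21.7% lower. DWARF4 (OS03G0227700), another oxidase of the pathway, stood at −0.81 ± 0.53 and was called lower with pairing (adjusted p = 0.0462). The receptor BRI1 (OS01G0718300) was at 44.7 and 45.1 FPKM in LJ and at 27.7 and 44.8 in blade, and the factor BZR1 (OS07G0580500), which carries the signal to its target genes, at 186 and 284 against 205 and 164. Both overlapped. GSK2 (OS05G0207500), the kinase that holds the pathway off, stood at 0.83 ± 0.33 (adjusted p = 0.0903) and was called with pairing (adjusted p = 0.0337) and under both scalings.

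Genes that pattern and size the young leaf were higher in LJ or not called. The list of YABBY and class III HD-ZIP polarity factors held 5 higher and 0 lower among 11 tested, at a median difference of 0.65, where 10.5% of all genes were called higher. The list of SPL and GRF growth regulators held 6 higher and 0 lower among 11, at a median of 1.05, and the list of 6 leaf shape genes held 3 higher and 0 lower, at a median of 0.89. With pairing the 3 lists held 7, 8 and 4 higher, against 17.9% of all genes, and 0 lower. YAB5 (OS04G0536300), a YABBY factor, had the largest difference on the LJ side among all named genes: 75.5 and 125 FPKM in LJ against 4.32 and 5.66 in blade (4.04 ± 0.25, adjusted p = 3.72e-07). Within the same family YAB4 (OS02G0643200) had 15.4 and 19.5 FPKM in LJ against 1.81 and 3.25 in blade (2.41 ± 0.26, adjusted p = 2.29e-05). YAB3 (OS10G0508300) had 11.5 and 8.96 FPKM in LJ against 2.25 and 2.22 in blade (1.79 ± 0.18, adjusted p = 1.72e-05). The YABBY family was not uniform: YAB1 (OS07G0160100) overlapped at −0.07 ± 0.31 and YAB6 (OS12G0621100) at −0.62 ± 0.39 (adjusted p = 0.916 and 0.289).

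The other called members of the polarity list, named after their values were seen, were YAB2 (OS03G0650000) at 1.59 ± 0.33 and the HD-ZIP III factor HOX33 (OS12G0612700) at 1.56 ± 0.37. HOX33 had 39.5 and 35.8 FPKM in LJ against 11.9 and 12.3 in blade, and its call was lost without LJ replicate 1 (adjusted p = 0.0561). The HD-ZIP III factors HOX10 (OS03G0109400) and HOX32 (OS03G0640800), also named after their values were seen, stood at 0.58 ± 0.23 and 0.65 ± 0.23 without a call (adjusted p = 0.0805 and 0.0604), and both were called with pairing (adjusted p = 0.0156 and 0.0219), under both scalings and with no filter. Among growth-regulating factors, a family that promotes cell proliferation in leaves, GRF1 (OS02G0776900) had 42.3 and 58.3 FPKM in LJ against 8.09 and 10.5 in blade (2.31 ± 0.31, adjusted p = 0.000155). GRF6 (OS03G0729500) had 53.5 and 55.7 FPKM in LJ against 9.71 and 17.5 in blade (1.98 ± 0.32, adjusted p = 0.000624). GRF10 (OS02G0678800), named after its value was seen, was higher by 1.34 ± 0.45, a call lost without LJ replicate 2 or blade replicate 1 (adjusted p up to 0.441), with a pseudocount of 0.1 (adjusted p = 0.162), with no filter (adjusted p = 0.0653) and with only S1, S2 and S3 in the fit (adjusted p = 0.0904). GRF3 (OS04G0600900) and SPL12 (OS06G0703500) stood at 1.05 ± 0.37 and 0.87 ± 0.38 and were called with pairing (adjusted p = 0.00481 and 0.00621), GRF3 also under both scalings and without blade replicate 2. GRF8 (OS11G0551900) was at a lower level, 5.48 and 3.44 FPKM in LJ against 0.813 and 0.537 in blade (1.68 ± 0.23, adjusted p = 0.000165). The SPL factors SPL2 (OS01G0922600) and SPL16 (OS08G0531600) overlapped between the tissues, at −0.35 ± 0.32 and 0.18 ± 0.22 (adjusted p = 0.496 and 0.637).

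In the leaf shape list, SLL1 (OS09G0395300), a KANADI-type factor of the lower leaf side, had 4.32 and 5.19 FPKM in LJ against 1.54 and 0.843 in blade (1.41 ± 0.27, adjusted p = 0.00217). ZHD1 (OS09G0466400), a zinc finger homeodomain factor of leaf rolling, was higher by 1.13 ± 0.34 (adjusted p = 0.0265), and its call was lost without either LJ replicate or blade replicate 1 (adjusted p up to 0.178). WOX4 (OS04G0649400), a homeobox gene of vascular and leaf development named after its value was seen, had 1.87 and 0.907 FPKM in LJ against 0.254 and 0.11 in blade (0.99 ± 0.17). NAL1 (OS04G0615000), a gene of leaf width, stood at 0.79 ± 0.36 and was called with pairing (adjusted p = 0.0236). ROC3 (OS10G0575600), an epidermal homeodomain factor, had 24.5 and 32 FPKM in LJ against 5.05 and 8.3 in blade (1.95 ± 0.30, adjusted p = 0.000464), while its relatives ROC1 (OS08G0187500) and ROC5 (OS02G0674800) overlapped. SHR1 (OS07G0586900), a GRAS factor of cell layer patterning, had 15.4 and 22.1 FPKM in LJ against 6.2 and 6.06 in blade (1.45 ± 0.23, adjusted p = 0.000639). The related SHR2, SCR1 and SCR2 overlapped and were not called.

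Every tested gene of DNA replication and mitosis was higher in LJ, 7 of 7 and 6 of 6, against 10.5% of all genes called in that direction. The medians were 1.75 and 1.52, and the groups of all 13 did not overlap, against 27.2% of tested genes with both LJ libraries above both blade libraries. PCNA (OS02G0805200), the sliding clamp of the replication fork, had 228 and 186 FPKM in LJ against 38.5 and 59.7 in blade (2.08 ± 0.57, adjusted p = 0.0183). The MCM2 to MCM7 subunits of the replicative helicase lay between 1.64 and 1.91. MCM7 (OS12G0560700), for example, had 18.6 and 10.1 FPKM in LJ against 2.53 and 3.36 in blade (1.91 ± 0.28, adjusted p = 0.000274). LJ replicate 1 was above LJ replicate 2 for each of the 7 replication genes.

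The mitotic cyclin CYCB2-1 (OS04G0563700) had 41.7 and 27 FPKM in LJ against 11.2 and 7.72 in blade (1.75 ± 0.32, adjusted p = 0.00147). CYCB1-1 (OS01G0805600) had 98.7 and 75.5 FPKM in LJ against 33 and 38.9 in blade (1.25 ± 0.26, adjusted p = 0.00402), and the kinase CDKB1-1 (OS01G0897000) was higher by 1.29 ± 0.29 (adjusted p = 0.00678). Division genes were thus expressed in blade too, at lower levels. The call of PCNA was lost without either LJ replicate or blade replicate 1 (adjusted p up to 0.131) and with a pseudocount of 0.1 (adjusted p = 0.0535). That of CDKB1-1 was lost without LJ or blade replicate 1 (adjusted p up to 0.0588), and that of CDKB2-1 (OS08G0512600), named after its value was seen, without LJ replicate 1 or either blade replicate (adjusted p up to 0.103) and with a pseudocount of 0.1 (adjusted p = 0.0731).

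Photosynthesis genes lay on the blade side, and the few that could be named are described together. Of 20 tested genes in the lists for Rubisco and the Calvin cycle, light harvesting, photosystem subunits, chlorophyll synthesis and photorespiration with nitrogen assimilation, 10 were lower in LJ and 0 higher, where 12.4% of all genes were called lower, and the list medians ran from −1.30 to −2.24. With pairing 19 of the 20 were lower, against 21.7% of all genes. RCA (OS11G0707000), Rubisco activase, had 37.8 and 19.5 FPKM in LJ against 359 and 258 in blade (−3.44 ± 0.99, adjusted p = 0.0225). GLO1 (OS03G0786100), the glycolate oxidase of photorespiration, had 9.19 and 7.49 FPKM in LJ against 61.1 and 63.2 in blade (−2.76 ± 0.32, adjusted p = 4.24e-05). PSAH (OS05G0560000), a subunit of photosystem I, had 309 and 289 FPKM in LJ against 1562 and 1277 in blade (−2.24 ± 0.54, adjusted p = 0.00863). Over all tested genes, 31.1% had both LJ libraries below both blade libraries. The groups of these 3 genes did not overlap, but the call of RCA was lost without any 1 of the 4 libraries (adjusted p up to 0.124) and that of PSAH without blade replicate 1 (adjusted p = 0.0615).

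The plastid aldolase gene FBA (OS11G0171300) and the epimerase gene RPE (OS03G0169100) of the Calvin cycle were lower by −1.97 ± 0.60 and −1.71 ± 0.37 (adjusted p = 0.03 and 0.00448), and FBA lost its call without any 1 of the 4 libraries (adjusted p up to 0.178), with no filter (adjusted p = 0.061) and under upper quartile scaling (adjusted p = 0.0555). The cytosolic glutamine synthetase GS1-2 (OS03G0223400) had 1.88 and 0.718 FPKM in LJ against 16.1 and 7.37 in blade (−2.42 ± 0.45, adjusted p = 0.00186). Its paralog GS1-1 (OS02G0735200) was far more abundant, at 210 and 228 FPKM in LJ, and overlapped with blade at 184 and 326. The plastid form GS2 (OS04G0659100), named after its value was seen, was lower by −1.83 ± 0.55, a call lost without any 1 of the 4 libraries (adjusted p up to 0.125) and under upper quartile scaling (adjusted p = 0.0524). FDGOGAT (OS07G0658400), the ferredoxin-dependent glutamate synthase, stood at −1.38 ± 0.56 and was called with pairing (adjusted p = 0.00274).

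Of 9 chlorophyll synthesis enzymes 3 were lower, with a median of −1.30, and all 9 were lower with pairing. Over all genes 12.4% were called lower without pairing and 21.7% with it. DVR (OS03G0351200), a divinyl reductase, had 17.2 and 17.9 FPKM in LJ against 71.8 and 46.6 in blade (−1.66 ± 0.30, adjusted p = 0.00148). CHLD (OS03G0811100), a subunit of magnesium chelatase, and GSA (OS08G0532200), an enzyme of 5-aminolevulinate synthesis, both named after their values were seen, were lower by −1.38 ± 0.33 and −1.35 ± 0.33, and both calls were lost without LJ replicate 2 or blade replicate 1 (adjusted p up to 0.069 and 0.0886). CHLI (OS03G0563300), another chelatase subunit, stood at −1.47 ± 0.64 (adjusted p = 0.115, and 8.62e-05 with pairing). The 5 others called with pairing, CHLH, CHLP, PORA, PORB and CHLG, stood between −0.78 and −1.30 (adjusted p from 0.155 to 0.403, and from 0.000544 to 0.0462 with pairing). The activators of chloroplast development GLK1 (OS06G0348800) and GLK2 (OS01G0239000) stood at −0.71 ± 0.54 and −0.84 ± 0.35 and were called with pairing alone (adjusted p = 0.0445 and 0.0168).

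Light-harvesting genes differed between the replicates of each tissue. CAB1R (OS09G0346500) stood at 1152 and 362 FPKM in LJ replicates 1 and 2 and at 4841 and 759 in blade replicates 1 and 2, and CAB2R (OS01G0600900) at 928 and 351 and at 6696 and 535. Replicate 1 was the higher library within each tissue, LJ replicate 1 lay above blade replicate 2, and neither gene was called (−1.57 ± 0.95 and −1.73 ± 1.28, adjusted p = 0.271 and 0.382). Within the pairs LJ was the lower library each time, and both genes were called with pairing (adjusted p = 0.000715 and 0.00726). CCA1 (OS08G0157600), a morning gene of the circadian clock, also differed by replicate number rather than by tissue, at 61.8 and 21.1 FPKM in LJ and 49.6 and 12 in blade. The part of the time of collection in these values was not tested. None of the 9 tested clock and photoreceptor genes was called, where 22.9% of all genes were called. GI (OS01G0182600) stood at −0.75 ± 1.06, with the error of the fit without pairing, and was called with pairing (adjusted p = 0.0134).

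**Figure D2:**
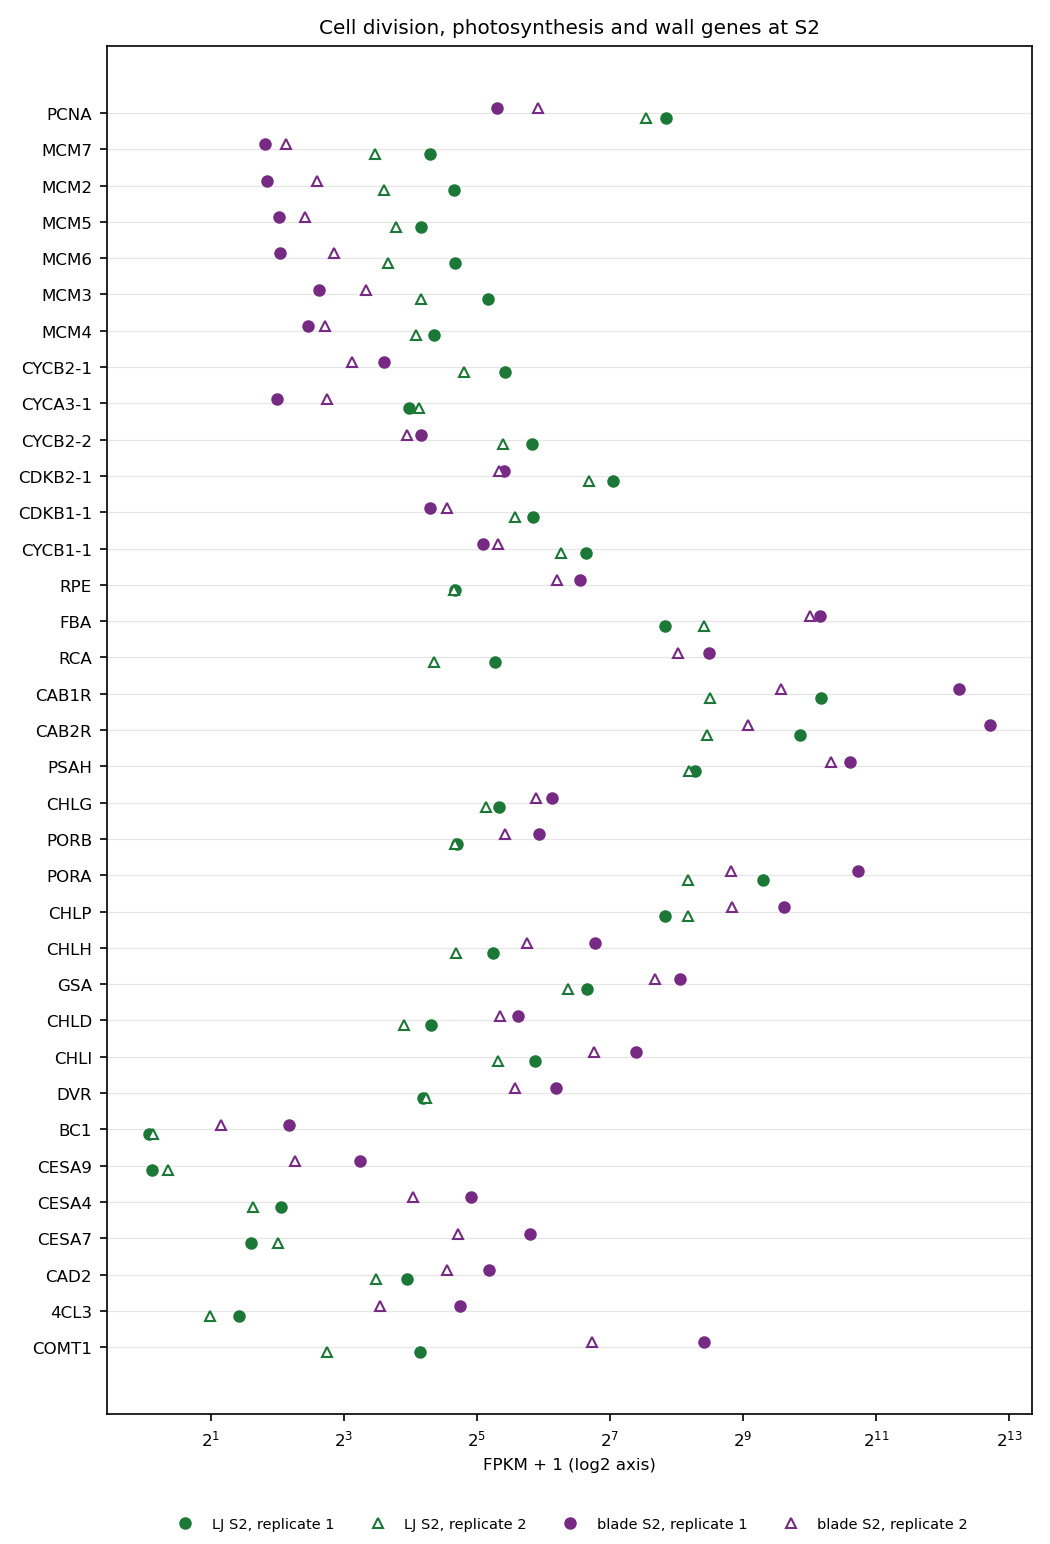
Levels at S2 of genes of cell division (top), photosynthesis and chlorophyll synthesis (middle) and secondary wall and lignin (bottom), as FPKM + 1 on a log2 axis with 1 point per library (colours for tissue, shapes for replicate). The division genes lie on the LJ side and the wall genes shown on the blade side without overlap, while CAB1R and CAB2R overlap between the tissues. The lignin enzyme 4CL1, which overlapped and was not called, is left out.

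Of 17 tested genes in the lists for secondary wall, lignin and primary wall synthesis, 11 were lower in LJ and 0 higher, where 12.4% of all genes were called lower. All 4 secondary wall genes and 3 of 4 lignin enzymes were lower, with medians of −2.58 and −2.05. CESA7 (OS10G0467800), a catalytic subunit of secondary wall cellulose synthase, had 2.05 and 3.03 FPKM in LJ against 54.4 and 25.2 in blade (−3.44 ± 0.47, adjusted p = 0.000163). Its partners CESA4 (OS01G0750300) and CESA9 (OS09G0422500) were lower by −2.63 ± 0.51 and −2.52 ± 0.46 (adjusted p = 0.0022 and 0.00152). BC1 (OS03G0416200), a COBRA-like protein of secondary walls, was under 0.1 FPKM in both LJ libraries and at 3.51 and 1.22 in blade (−1.56 ± 0.49, adjusted p = 0.0326), and its call was lost without either LJ replicate or blade replicate 1 (adjusted p up to 0.271), with no filter (adjusted p = 0.0567) and under both scalings (adjusted p = 0.0537 and 0.0767).

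COMT1 (OS08G0157500), the methyltransferase of the lignin pathway, had 16.6 and 5.7 FPKM in LJ against 340 and 105 in blade (−4.13 ± 0.74, adjusted p = 0.00139). 4CL3 (OS02G0177600), a coumarate ligase, had 1.67 and 0.975 FPKM in LJ against 25.9 and 10.6 in blade (−2.94 ± 0.54, adjusted p = 0.00151). CAD2 (OS02G0187800), the alcohol dehydrogenase of the last step, was lower by −1.15 ± 0.37 (adjusted p = 0.0382), a call lost without either LJ replicate or blade replicate 1 (adjusted p up to 0.265), with no filter (adjusted p = 0.0507) and under both scalings (adjusted p = 0.0652 and 0.0664). In these wall genes blade replicate 1 was the highest of the 4 libraries each time.

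The 9 primary wall synthases held 4 lower and 0 higher, at a median of −0.91, and 6 lower and 1 higher with pairing. Over all genes 12.4% were called lower and 10.5% higher, and with pairing 21.7% and 17.9%. CESA8 (OS07G0208500), a cellulose synthase subunit, had 9.37 and 6.24 FPKM in LJ against 33.5 and 29.9 in blade (−1.92 ± 0.39, adjusted p = 0.0034). CSLF6 (OS08G0160500), which makes mixed-linkage glucan, had 11.7 and 13.8 FPKM in LJ against 42.4 and 51.6 in blade (−1.80 ± 0.26, adjusted p = 0.000296). The other called members, named after their values were seen, were CESA3 (OS07G0424400) at −1.60 ± 0.41 and CESA5 (OS03G0837100) at −0.91 ± 0.27, with calls lost without LJ replicate 2 or blade replicate 1 (adjusted p up to 0.0933 and 0.172), and that of CESA5 also without blade replicate 2. CESA1 (OS05G0176100) and CESA6 (OS07G0252400) stood at −1.20 ± 0.47 and −0.70 ± 0.28 and were called with pairing (adjusted p = 0.00446 and 0.0388). On the other side stood CSLD4 (OS12G0555600), a synthase known for its role in leaf rolling and cell division, with 45.9 and 48.7 FPKM in LJ against 24.9 and 18.7 in blade (1.10 ± 0.45, adjusted p = 0.0938, and 0.0404 with pairing).

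Expansins, proteins that loosen walls during elongation, were lower in LJ in 5 of 11 cases and higher in 0, where 12.4% of all genes were called lower, with a median of −0.85. EXPB3 (OS10G0555900) had 0.614 and 1.87 FPKM in LJ against 79.6 and 21.9 in blade (−4.32 ± 0.65, adjusted p = 0.000362). EXPB11 (OS02G0658800) had 2.16 and 1.42 FPKM in LJ against 71.1 and 28.6 in blade (−4.06 ± 0.46, adjusted p = 3.89e-05). The other 3, named after their values were seen, were EXPA2 (OS01G0823100) at −1.77 ± 0.52, EXPA7 (OS03G0822000) at −0.97 ± 0.29 and EXPB6 (OS10G0555600) at −1.81 ± 0.54, and each lost its call without LJ or blade replicate 1 (adjusted p up to 0.275, 0.166 and 0.308), EXPA7 also without blade replicate 2 and with a pseudocount of 0.1 (adjusted p = 0.0657), and EXPB6 also without LJ replicate 2. EXPA5 (OS02G0744200) was not called, at 18.2 and 48.6 FPKM in LJ and 16 and 16.3 in blade (0.84 ± 0.57, adjusted p = 0.332). EXPB3 and EXPB6 have neighbouring IDs on the same chromosome, and similar copies can share reads.

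Of 12 aquaporins and silicon transporters, membrane channels for water and silicic acid, 5 were lower in LJ and 0 higher, where 12.4% of all genes were called lower, with a median of −1.26. With pairing 10 were lower, against 21.7% of all genes. In 11 of the 12 both LJ libraries lay below both blade libraries, against 31.1% of all tested genes. PIP1-3 (OS02G0823100) was listed at 0 and at 0.154 FPKM in LJ and stood at 9.69 and 3.15 in blade (−2.63 ± 0.67, adjusted p = 0.0123). PIP2-2 (OS02G0629200) had 8.24 and 4.04 FPKM in LJ against 92.1 and 33.5 in blade. In the fit of all 20 libraries its error was wide and it was not called (−3.05 ± 1.16, adjusted p = 0.0737). It was called with pairing (adjusted p = 2.1e-05) and with only S1, S2 and S3 in the fit (adjusted p = 0.0116). A fit to the 4 S2 libraries, filtered on those alone, also called it (adjusted p = 0.00695). The other called channels, named after their values were seen, were PIP1-2 (OS04G0559700), PIP2-6 (OS04G0233400), PIP2-7 (OS09G0541000) and TIP2-2 (OS06G0336200), at −1.83 ± 0.46, −1.86 ± 0.62, −1.51 ± 0.42 and −1.31 ± 0.37. The call of PIP1-3 was lost without LJ or blade replicate 1 (adjusted p up to 0.134). Those of PIP1-2 and PIP2-7 were lost without either LJ replicate or blade replicate 2 (adjusted p up to 0.104 and 0.14), and those of PIP2-6 and TIP2-2 without any 1 of the 4 libraries (adjusted p up to 0.146 and 0.0858). The call of PIP2-6 was also lost under both scalings (adjusted p = 0.0774 and 0.0844), with no filter (adjusted p = 0.0712) and with a pseudocount of 0.1 (adjusted p = 0.0549). Besides PIP2-2, pairing added PIP1-1, PIP2-1, TIP1-1 and the silicon transporter LSI6 (adjusted p = 0.00182, 0.000996, 0.014 and 0.00972).

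**Figure D3:**
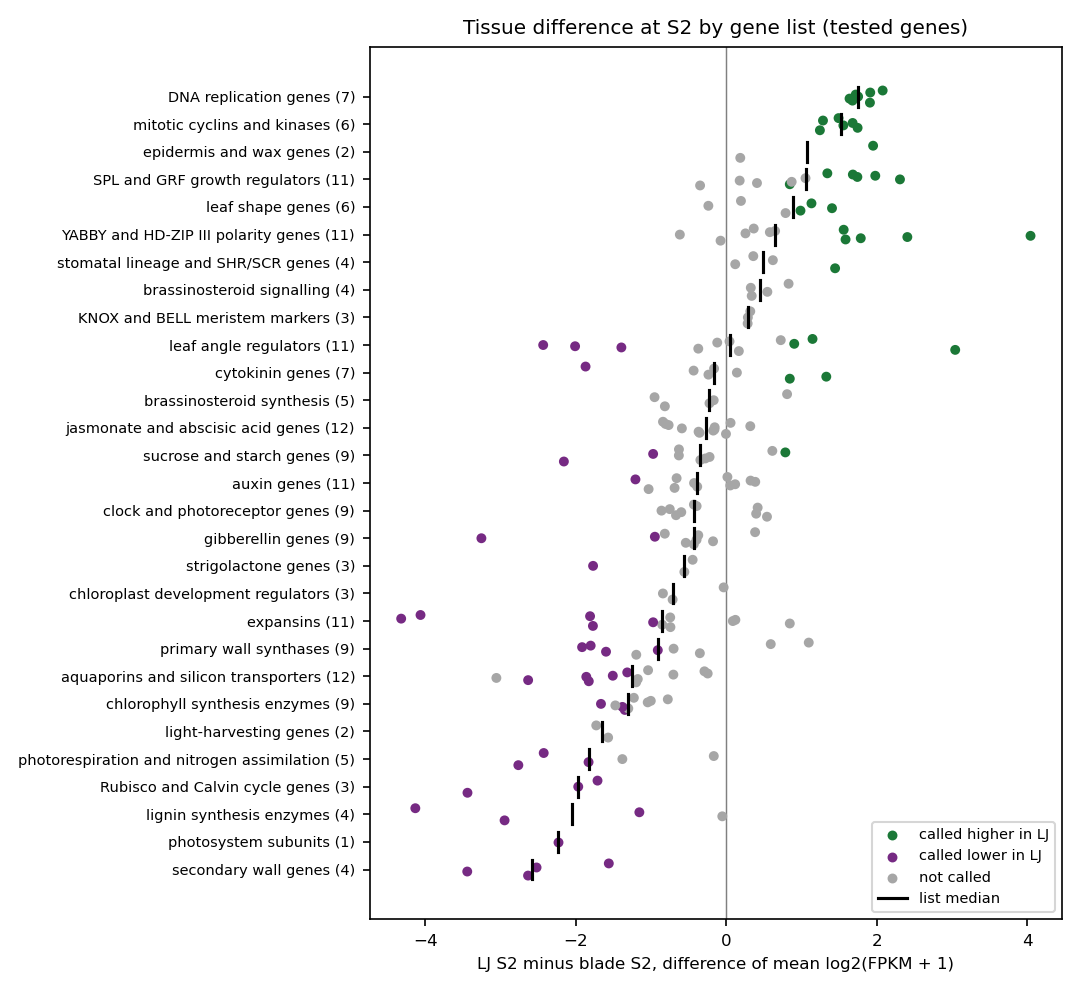
LJ S2 minus blade S2 difference of mean log2(FPKM + 1) for the tested genes of each list (number in brackets), with 1 point per gene and a bar at the list median; green marks genes called higher in LJ, purple those called lower, grey those not called. Division, polarity and growth regulator lists lie to the right and wall, water channel and photosynthesis lists to the left.

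The 5 lists for hormones other than brassinosteroids held 7 calls among 42 tested genes, 16.7%, where 22.9% of all genes were called. With pairing they held 13, where 39.5% of all genes were called. The gibberellin list held 2 lower and 0 higher among 9, at a median of −0.43, and pairing added the receptor GID1 (OS05G0407500) at −0.82 ± 0.44 (adjusted p = 0.00619). KAO (OS06G0110000), an oxidase of gibberellin synthesis, had 0.626 and 1.98 FPKM in LJ against 34.8 and 11.3 in blade (−3.25 ± 0.46, adjusted p = 0.00022). EUI1 (OS05G0482400), which inactivates gibberellins, had 0.524 and 0.17 FPKM in LJ against 2.61 and 0.838 in blade (−0.95 ± 0.29, adjusted p = 0.0295), a call lost without either LJ replicate or blade replicate 1 (adjusted p up to 0.34), under quantile normalization (adjusted p = 0.0793) and with only S1, S2 and S3 in the fit (adjusted p = 0.0718). The repressor SLR1 (OS03G0707600) stood at 95.8 and 121 FPKM in LJ and at 124 and 157 in blade, without overlap and without a call (−0.37 ± 0.34, adjusted p = 0.492).

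In the cytokinin list 2 of 7 were higher and 1 lower, where 10.5% and 12.4% of all genes were called. RR1 (OS04G0442300) and RR2 (OS02G0557800), type-A response regulators induced by cytokinin, were higher by 0.84 ± 0.23 and 1.33 ± 0.36 (adjusted p = 0.0192 and 0.0171). CKX5 (OS01G0775400), a cytokinin oxidase, had 9.97 and 11.7 FPKM in LJ against 66.5 and 26.4 in blade (−1.87 ± 0.40, adjusted p = 0.00461). The call of CKX5 was lost without blade replicate 1 (adjusted p = 0.0686). That of RR1 was lost without LJ replicate 1 or either blade replicate, and that of RR2 without either LJ replicate or blade replicate 2 (adjusted p up to 0.121 and 0.138).

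PIN1B (OS02G0743400), an auxin efflux carrier, was the 1 call among 11 auxin genes, with 39.5 and 69.5 FPKM in LJ against 104 and 144 in blade (−1.21 ± 0.32, adjusted p = 0.0142), lost without LJ replicate 1 or blade replicate 2 (adjusted p up to 0.158). Over all genes 12.4% were called lower without pairing and 21.7% with it. Pairing added IAA1 (OS01G0178500), an Aux/IAA repressor, at −1.03 ± 0.46 (adjusted p = 0.00499). The strigolactone receptor D14 (OS03G0203200) had 49.5 and 58.6 FPKM in LJ against 289 and 120 in blade (−1.77 ± 0.47, adjusted p = 0.0155), and this 1 call among 3 genes was lost without LJ or blade replicate 1 (adjusted p up to 0.185). Pairing added D3 (OS06G0154200), the F-box partner of D14, at −0.56 ± 0.26 (adjusted p = 0.0396). None of 12 jasmonate and abscisic acid genes was called without pairing, and 3 were lower with it: the abscisic acid hydroxylases ABA8OX1 (OS02G0703600) and ABA8OX2 (OS08G0472800) and the epoxidase ZEP (OS04G0448900), at −0.77 ± 0.46, −0.81 ± 0.42 and −0.84 ± 0.55 (adjusted p = 0.042, 0.00909 and 0.00384). ABA8OX2 was also called without blade replicate 2 (adjusted p = 0.0162).

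In the sucrose and starch list 1 of 9 was higher and 2 were lower, where 10.5% and 12.4% of all genes were called. The sucrose transporter SUT1 (OS03G0170900) had 0.416 and 0.525 FPKM in LJ against 6.56 and 4.68 in blade (−2.16 ± 0.34, adjusted p = 0.000545). The cell wall invertases CIN2 (OS04G0413500) and CIN1 (OS02G0534400) stood on opposite sides, at 0.79 ± 0.26 and −0.97 ± 0.33 (adjusted p = 0.0406 and 0.0465). The call of CIN2 was lost without either LJ replicate or blade replicate 1 (adjusted p up to 0.259) and with a pseudocount of 0.1 (adjusted p = 0.223), and that of CIN1 without any 1 of the 4 libraries (adjusted p up to 0.166), with no filter (adjusted p = 0.0597) and under both scalings (adjusted p = 0.0707 and 0.0621). Pairing added SS1 (OS06G0160700) on the higher side and AGPS2 (OS08G0345800), both of starch synthesis, on the lower side (adjusted p = 0.0348 and 0.0359).

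**Figure D4:**
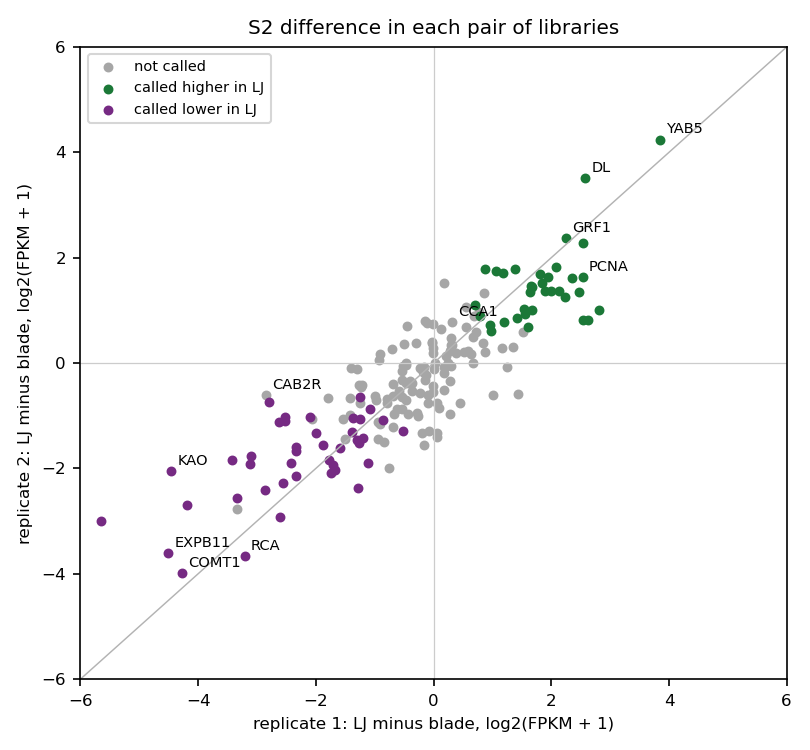
LJ minus blade difference in log2(FPKM + 1) of each tested named gene within replicate 1 (horizontal) and within replicate 2 (vertical), with 1 point per gene coloured by its call and a grey line where both pairs are equal. Called genes keep their direction in both pairs, and the calls were made from these same libraries. CAB2R, which was not called, has the same direction in both pairs but unlike sizes, −2.85 in replicate 1 and −0.61 in replicate 2.

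Outside the named genes, the largest calls without overlap are given by ID, since the tables used here do not name them. OS05G0111300 had 773.4 and 468.5 FPKM in LJ against 15.28 and 4.09 in blade (6.05 ± 0.70, adjusted p = 4.83e-05), and OS01G0327500 had 173.5 and 207.9 against 4.746 and 3.511 (5.23 ± 0.70, adjusted p = 0.000154). On the blade side, OS10G0150600 had 2.614 and 2.588 FPKM in LJ against 1522 and 723.7 in blade (−8.19 ± 0.36, adjusted p = 2.15e-08), and OS10G0150400 had 3.764 and 10.14 against 2804 and 1559 (−8.17 ± 0.45, adjusted p = 1.15e-07). The last pair have close IDs on the same chromosome and can share reads if their sequences are alike.

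The tissue difference at S2 was then compared with that at S1 and at S3 by interaction terms in the same limma fit. These terms use the S2 libraries described above, so they are not independent of the S2 values. Against S1, 30 genes differed, 0.114% of those tested, 23 with a higher value at S2 (0.0871%) and 7 with a lower one (0.0265%), and 0 of the named genes were among them. A fit to S1, S2 and S3 alone called 0, with 1095 at an unadjusted p under 0.05. Against S3, 865 genes differed (3.28%), 749 with a higher value at S3 (2.84%) and 116 with a lower one (0.439%). The median of this term over all tested genes was 0.16, and it was −0.02 after upper quartile scaling and −0.08 after quantile normalization. Among named genes 10 were on the higher and 5 on the lower side. Of these 15, EXPA1 and SPL7 were under 1 FPKM in all 4 S2 libraries, and the other 13 are described.

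For 5 of the 13, BU1, CYCU4;1, EXPA7, EUI1 and D35, an oxidase of gibberellin synthesis, both LJ libraries lay below both blade libraries at S2 and above them at S3. The 13 were picked by this interaction term, and the share of all genes that changed sides was not counted. At S2 alone, 31.1% of all tested genes had both LJ libraries below both blade libraries. BU1 had 27.3 and 23.3 FPKM in LJ at S3 against 6.57 and 9.74 in blade, and the tissue difference changed by 2.93 ± 0.33 (adjusted p = 0.000308). CYCU4;1 had 139 and 125 FPKM in LJ at S3 against 41.7 and 53.4 in blade, a change of 3.47 ± 0.38 (adjusted p = 0.000249). BU1 and CYCU4;1 were lower in LJ at S1 as well, by −2.41 ± 0.23 and −3.64 ± 0.27. In BU1 and CYCU4;1 the LJ mean was higher and the blade mean lower at S3 than at S2. IBH1 did not cross: it stayed lower in LJ at S3 (9.61 and 4.09 against 32.7 and 20.4 FPKM), and its change was 0.56 (adjusted p = 0.813, and 0.0459 with a pseudocount of 0.1, which weights low levels more).

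The other 3 genes that changed sides were named after their values were seen. EXPA7 had 10.9 and 14.3 FPKM in LJ against 24 and 26.9 in blade at S2, and 38.1 and 30 against 12.4 and 17.3 at S3, a change of 2.12 ± 0.41 (adjusted p = 0.00958) that lost its call without blade S3 replicate 1 (adjusted p = 0.0564). EUI1 had 4.29 and 2.09 FPKM in LJ at S3 against 1.19 and 0.825 in blade, a change of 1.97 ± 0.41 (adjusted p = 0.0163). Its call was lost under quantile normalization (adjusted p = 0.0681), with only S1, S2 and S3 in the fit (adjusted p = 0.0695) and without LJ S2 replicate 2, blade S2 replicate 1, LJ S3 replicate 1 or blade S3 replicate 2 (adjusted p up to 0.0784). D35 (OS06G0570100) had 4.63 and 4.2 FPKM in LJ against 8.04 and 5.82 in blade at S2, where it was not called (adjusted p = 0.213), and 22 and 20.6 against 7.52 and 9.3 at S3. Its change of 1.79 ± 0.41 (adjusted p = 0.0286) lost its call without any 1 S2 or S3 library other than blade replicate 2 of each stage (adjusted p up to 0.126).

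EXPB11 and EXPB3, far lower in LJ at S2, overlapped between the tissues at S3, with 80.9 and 94.3 FPKM of EXPB11 in LJ against 43.5 and 100 in blade, and 121 and 73.9 of EXPB3 against 99 and 143. The tissue differences changed by 4.46 ± 0.65 and 3.99 ± 0.91 (adjusted p = 0.0016 and 0.0278). EXPB3 lost this call under both scalings (adjusted p = 0.067 and 0.0594) and without replicate 1 of either tissue at S2 or S3 or blade S3 replicate 2 (adjusted p up to 0.121). CESA7 had 89.7 and 35.6 FPKM in LJ at S3 against 118 and 92.6 in blade. Its change of 2.57 ± 0.66 passed narrowly (adjusted p = 0.0485). The call was lost after either scaling (adjusted p = 0.133 and 0.102), with a pseudocount of 0.1 (adjusted p = 0.078), with no filter (adjusted p = 0.0753), with only S1, S2 and S3 in the fit (adjusted p = 0.0776) and without any 1 S2 or S3 library other than blade S2 replicate 2 and LJ S3 replicate 2 (adjusted p up to 0.221). For COMT1 and RCA the changes of 2.15 and 1.30 were called with pairing alone (adjusted p = 0.403 and 0.85, and 0.00234 and 0.0121 with pairing).

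HOX29 (OS01G0200300), a class III HD-ZIP factor, overlapped at S2 with 1.91 and 2.4 FPKM in LJ and 1.91 and 1.04 in blade. At S3 it stood at 0.131 and 0.287 in LJ against 6.33 and 4.43 in blade, a change of −2.75 ± 0.30 (adjusted p = 0.000245). GRF1 overlapped between the tissues at S3, at 3.41 and 6.31 FPKM in LJ and 2.42 and 4.19 in blade, and GRF8 was near the floor in both. Their tissue differences changed by −1.88 ± 0.44 and −1.30 ± 0.32 (adjusted p = 0.0307 and 0.0417), and both calls were lost with a pseudocount of 0.1 (adjusted p = 0.194 and 0.278) and with only S1, S2 and S3 in the fit (adjusted p = 0.0633 and 0.136), that of GRF8 also with a filter at 5 FPKM (adjusted p = 0.0601). They were also lost without blade S2 replicate 1, LJ S3 replicate 1 or blade S3 replicate 2, that of GRF1 also without LJ S2 replicate 2, and that of GRF8 also without LJ S2 replicate 1, blade S2 replicate 2 or blade S3 replicate 1 (adjusted p up to 0.146 and 0.192). YAB3 changed by −1.30 ± 0.26 (adjusted p = 0.0119), a call lost with a pseudocount of 0.1, with only S1, S2 and S3 in the fit and without blade S3 replicate 1 (adjusted p = 0.222, 0.0641 and 0.0655), and no change was called for YAB5, at 18.6 and 15.6 FPKM in LJ at S3 against 0.531 and 0.625 in blade (−0.53, adjusted p = 0.63). The difference of CYCB1-1 was larger at S3, with 22.9 and 29.1 FPKM in LJ against 1.85 and 2.7 in blade (change 1.80 ± 0.37, adjusted p = 0.0152), a call lost without LJ S2 replicate 2, LJ S3 replicate 2 or blade S3 replicate 1 (adjusted p up to 0.0827).

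**Figure D5:**
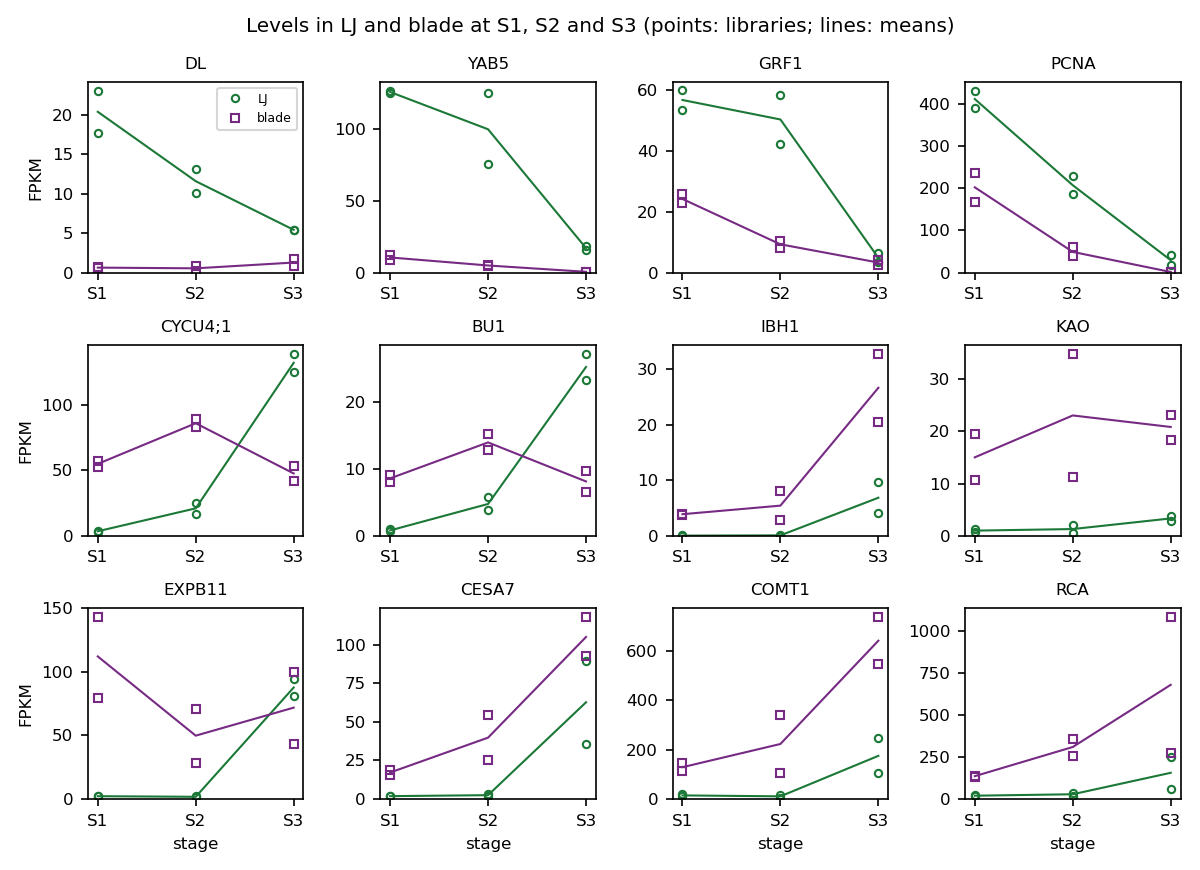
FPKM of 12 named genes in LJ (green circles) and blade (purple squares) at S1, S2 and S3, with 1 point per library and lines through the means of 2 libraries; each panel has its own axis from 0. BU1 and CYCU4;1 stand below blade in LJ at S1 and S2 and above it at S3, and YAB5 stands above blade at all 3 stages.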

How the data were processed

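RNA was extracted with TRIzol and sequenced from NEBNext Ultra libraries made from 3 ug of RNA, per the labels' protocols, without a statement on strand, so a gene and its overlapping or antisense neighbour may share reads. The deposited values are FPKM, which the authors made with CASAVA 1.8, Trimmomatic 0.36, TopHat2 2.1.1 and Cufflinks 2.2.1 on the build IRGSP-1.0, per the submitters' processing notes. FPKM keep no read number, so depth is unknown and no counting interval is given. Of the features listed, 44803 that are not rice gene IDs were left out, and 6016 of 37829 rice IDs had 0 in all 4 S2 libraries.

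The filter kept genes that reached 1 FPKM in 2 or more of 20 libraries. The test was limma 3.58.1 in R 4.3.3 (lmFit, eBayes with trend) on log2(FPKM + 1), 10 groups in 1 fit, 10 residual and 4.09 prior degrees of freedom, and Benjamini-Hochberg adjustment over all 26403 genes. Errors of differences are SE of this fit, without pairing, also where an adjusted p with pairing stands beside them. Other software was the data.table package, version 1.17.8, Python 3.11.15, pandas 2.3.3 and matplotlib 3.10.9. The fit was also run on simulated data with noise drawn independently for each library. This does not cover libraries of the same number that deviate together.

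Same-numbered LJ and blade libraries deviated together at each stage, least at S2 (correlation of the replicate difference 0.478, 0.213, 0.662, 0.774 and 0.516 from S1 to S5). A fit with these pairs as blocks is therefore given where it changes the call of a gene or the count of a list described. Its spread was estimated over all 5 stages, so calls with pairing at S2 also rest on the pairs of the other stages.

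The 307 pairs of symbol and ID came from background knowledge and were kept where RefSeq (assembly ASM3414082v1) has the symbol on the same chromosome within 2% of the gene order: 202 passed, 11 were contradicted, 92 symbols and 2 IDs were absent. The genes named are all leaf angle regulators at 1 FPKM or more, up to 2 highest and 2 lowest of each other list, the 10 largest rises and falls without overlap, 3 and 3 per interaction term, and 2 and 2 by ID. Genes outside these rules, among them those called with pairing alone, were added after their values were seen. Members and lists were chosen with earlier results of these data known. Alternatives were another pseudocount (0.1), filter (none, 5 FPKM), scaling and set of groups, pairing, and leaving out single libraries, where the lone library of that group is taken to vary as the other groups do.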

Additional observations from a re-analysis of the deposited data

Results flagged for a closer look

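For 13 genes described above the tissue difference changed between S2 and S3 by the interaction term. The change (S3 minus S2, log2 scale) was 2.932 for BU1, 3.468 for CYCU4;1, 1.966 for EUI1, 2.124 for EXPA7, 1.788 for D35, 4.459 for EXPB11, 3.991 for EXPB3, 2.569 for CESA7, 1.803 for CYCB1-1, −1.879 for GRF1, −1.3 for GRF8, −1.3 for YAB3 and −2.753 for HOX29. In BU1, CYCU4;1, EUI1, EXPA7 and D35 both LJ libraries were below both blade libraries at S2 and above them at S3. The 13 genes were picked by this term, which favours a change of sides, and the share of all genes that changed sides was not counted. With only the groups compared in limma, EUI1, EXPA7 and D35 were not called for this term (adjusted p = 0.194, 0.0791 and 0.104). In HOX29 the libraries overlapped at S2 and both LJ libraries were below both blade libraries at S3.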

How the results depend on the processing

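The number of genes called for LJ minus blade at S2 was 10439 with pairing (the replicate block), 614 with only the groups compared, 4000 when those 4 libraries were also filtered alone (chosen after seeing the data), and 3175 to 4524 with each library left out. For the change in tissue difference from S1 to S2 it was 9 with a pseudocount of 0.1, 71 with no filter, 10 with a filter at 5 FPKM, 0 with only S1, S2 and S3, 63 with the replicate block, 0 and 0 with only the groups compared under either filter (1347 and 1055 at an unadjusted p under 0.05 in limma), and 13 to 43 with each library left out, with 15 or fewer without LJ S1 replicate 1 or any 1 blade library of S1 or S2. For the change from S2 to S3 it was 2396 with the replicate block, 167 and 272 with only the groups compared under either filter, and 405 to 868 with each library left out, falling to 554 when blade S2 replicate 1, to 489 when LJ S3 replicate 1 and to 405 when blade S3 replicate 1 was the library left out. The replicate block ended 0 calls of the 193 tested named genes and added 38. Of the named genes 35 were called higher and 41 lower at S2 in the main fit. With only the groups compared 65 of the S2 calls described were lost, among them those of BU1, CYCU4;1, IBH1, YAB4 and GRF6. With no filter 6 were lost, and none of these losses came with a change of direction. In 18 named genes without a call the direction of the S2 difference turned under some alternative, none at an adjusted p under 0.314. With each library left out these ran from −0.652 to 1.045 in AGO7, −3.549 to 0.095 in CAB2R, −0.441 to 1.524 in CCA1, −0.883 to 0.017 in CKX2, −0.445 to 0.114 in D11, −0.173 to 0.35 in EXPA10, −0.233 to 0.322 in GH3-1, −0.576 to 0.246 in GS1-1, −0.984 to 0.677 in JAZ11, −0.069 to 0.405 in LG1, −0.31 to 1.147 in PHYA, −1.918 to 0.198 in PRR95, −0.548 to 0.075 in ROC5, −0.091 to 0.811 in SCR2, −0.303 to 0.543 in SHR2, −0.019 to 0.377 in SPL16, −0.371 to 0.302 in V2 and −0.308 to 0.158 in YAB1. Under quantile normalization D11 was at 0.004, V2 at 0.068 and YAB1 at 0.037, and under upper quartile scaling V2 at 0.077 and YAB1 at 0.049. For the change from S2 to S3, likewise not called, IBH1 ran from −0.065 to 1.189 with each library left out and YAB5 was at 0.391 with a pseudocount of 0.1. The cause of these changes was not tested. Depth is unknown, and 2 libraries a group limit what can be told apart.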

Other observations

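Genes expressed on 1 side alone were mostly blade genes: 111 had 5 FPKM or more in both blade S2 libraries and under 0.5 in both LJ S2 libraries, and 13 had the opposite pattern, with no named gene among either set. Over all 26403 tested genes, the mean log2 level of blade S1 was nearer to LJ S2 than to blade S2 in 49.9%, that of LJ S1 in 80.7%, that of LJ S3 in 31.8% and that of blade S3 in 17.8%. These shares are descriptions of the means of 2 libraries a group, with no test.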
